A study of Danio rerio with 6 samples.

Results

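The genes described here build the sugar chains of mucins and of other secreted and membrane glycoproteins and glycolipids, and they were followed in intestinal epithelial cells of zebrafish larvae at 3 and 5 days post fertilization (dpf). Members are all genes whose Ensembl name starts, in any letter case, with galnt, c1galt1, gcnt, b3gnt, b4galt, b3galt, st3gal, st6gal (which takes in st6galnac), st8sia, or fut with a digit after it. The rule used names only and found 107 of the 32520 genes counted, of which 94 had enough counts to be tested among 22386 genes. The 6 libraries, 3 of each age, came from larvae carrying TgKI(cldn15la:tdTomato)pd1249, a red fluorescent reporter knocked in at the claudin gene cldn15la. Both ages carry that reporter and no other treatment is named, so age is what differs between the groups. Heads were removed, the bodies of many larvae were pooled and dissociated, and tdTomato-positive cells were sorted, so each library is a pool and any tissue that makes the reporter can enter it. Non-transgenic controls named in the design were not analysed here.

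Mucin-type O-glycans start when a GALNT enzyme in the Golgi adds N-acetylgalactosamine (GalNAc) to a serine or threonine of the protein. C1GALT1, with its chaperone, then adds galactose, and GCNT enzymes add a branch of N-acetylglucosamine (GlcNAc). B3GNT, B4GALT and B3GALT enzymes lengthen the chain with GlcNAc and galactose, and sialyltransferases and fucosyltransferases cap it. In the gut these chains make up much of the mass of gel-forming mucins and of the glycocalyx on enterocytes, and many of the same enzymes also work on N-glycans, glycolipids or proteoglycans.

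All libraries carry the same batch label. Library totals ran from 102653637 to 125456069 counts. Age groups follow the sample titles, although 3 dpf replicate 3 also carries a treatment tag of 4 dpf. Among the 5 dpf libraries, replicate 1 stood apart: 29.2% of its counts were mitochondrial, against 7.91 to 11.4% in the other 5 libraries, and its TMM scaling factor, which corrects for the make-up of a library, was 0.612 against 1.00 to 1.27. It lay above the mean log2 CPM of the other 5 dpf libraries in 43 of the 94 tested members. Results are therefore also given without it. The glycosyltransferases together held 0.114 to 0.125% of the counts of a 3 dpf library, and 0.131, 0.213 and 0.206% of 5 dpf replicates 1, 2 and 3. Levels below are CPM, counts set relative to the library's size after scaling by the TMM factors, given for replicates 1, 2 and 3 in that order. Levels of different members are set side by side only per kilobase of exon. Marker lists are summed and their genes ranked in CPM, without regard to gene length.

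Between 3 and 5 dpf, 29 of the 94 tested glycosyltransferases rose and 1 fell by edgeR's quasi-likelihood F-test at an adjusted p below 0.05. That is 30.9% of the tested members higher, where 18.1% of all genes tested were higher, 14.1% lower and 32.1% called in either direction. The median log2 fold change was 0.46 over the tested members and 0.09 over all genes tested. The other 64 tested members did not pass, and 41 of the 94 had an unadjusted p below 0.05. In 34 of the 94 all 5 dpf libraries lay above all 3 dpf libraries and in 10 below, where 26.1 and 24.2% of all genes did so. Read by steps of the chain, 13 of 31 tested genes of initiation and core formation rose, with a median log2 fold change of 0.81. Of 27 tested genes of chain extension 7 rose and 1 fell, with a median of 0.36. Of 36 tested genes that add sialic acid or fucose 9 rose, with a median of 0.13. The order of these medians depended on 5 dpf replicate 1: without it they were 0.49, 0.30 and 0.47, with 16 of 31, 9 of 29 and 14 of 39 tested genes higher. The extension and capping sets there include genes that were not tested with all libraries. Over all genes 24.8% were higher in that fit. In the bulk RNA of a sort, a change in how many cells of a type are present and a change in RNA per cell cannot be told apart.

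The count of genes that rose depended on single libraries: it was 15 without 3 dpf replicate 1 (7.63% of all genes higher and 5.26% lower) and 19 without 3 dpf replicate 2 (9.12 and 6.32%), with 0 lower in both. Without 5 dpf replicate 1 it was 39, all 30 calls were kept, and the number that fell went from 1 to 7 (24.8% of all genes higher and 21.0% lower). Of the 30 called genes, 15 passed in each of the 15 alternative analyses that tested them, and all 30 kept their direction in each. With library size alone as the scaling, 19 rose and 0 fell (11.2 and 5.97% of all genes). DESeq2 called 33 higher and 6 lower (21.3 and 15.9% of all genes). Under upper quartile scaling the median over all genes was 0.22 in place of 0.09, and 32 members rose and 0 fell (20.8 and 11.0% of all genes).

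**Figure D1:**
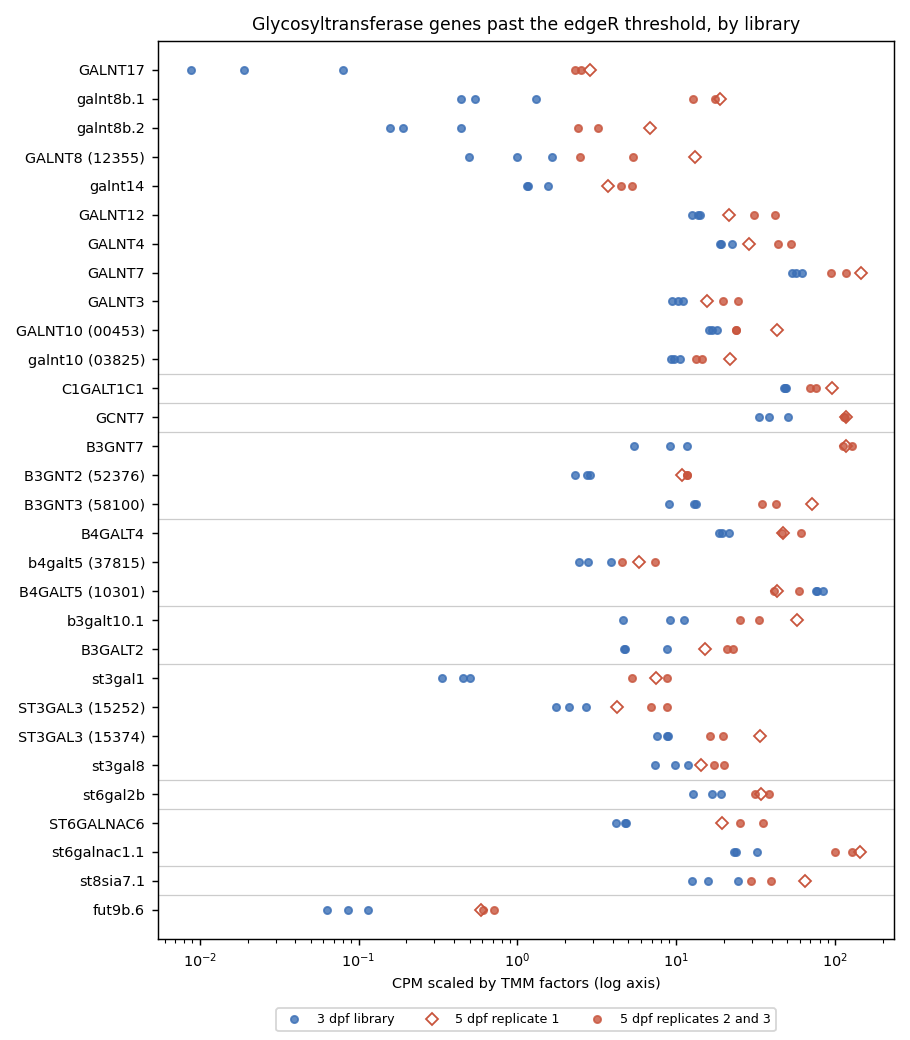
CPM scaled by TMM factors, on a log axis, of the 30 glycosyltransferases that passed the test, with a point for each library (3 dpf in one colour, 5 dpf in the other, 5 dpf replicate 1 as an open diamond); the last 5 digits of the Ensembl ID stand in parentheses where symbols are shared. In 29 genes all 5 dpf points lie above all 3 dpf points, and in B4GALT5 they lie below.

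Initiating enzymes gave the most calls and are the largest family. Where 18.1% of all genes tested were higher, 11 of the 23 galnt genes, all tested, rose (47.8%) and 0 fell, with a median log2 fold change of 0.86. Their summed level went from 106 ± 2.24 to 177 ± 27.9 CPM per kb (mean ± SD, n = 3 libraries an age). The genes with the largest fold changes were rare at 3 dpf. GALNT17, which in mammals belongs to a branch of the family expressed mainly in the brain, was at 0.0191, 0.00884 and 0.0794 CPM at 3 dpf and at 2.87, 2.30 and 2.51 CPM at 5 dpf. It was thus close to absent in all 3 dpf libraries, and its log2 fold change was 6.08 ± 0.70 (SE, adjusted p = 0.00215), or 7.41 without 3 dpf replicate 3. A pair of neighbouring genes on chromosome 4, galnt8b.1 and galnt8b.2, whose starts lie 10.7 kb apart, rose as well. galnt8b.1 was at 0.439, 1.31 and 0.540 CPM at 3 dpf and at 19.0, 17.5 and 12.7 CPM at 5 dpf (log2 fold change 4.42 ± 0.48, adjusted p = 0.00184, and 5.04 without 3 dpf replicate 2). galnt8b.2 was at 0.191, 0.442 and 0.159 CPM and then at 6.86, 3.21 and 2.43 CPM (3.97 ± 0.60, adjusted p = 0.00423). In neither gene did the ages overlap. Replicate 1 was the highest 5 dpf library in both after TMM scaling, an order that depends on its low scaling factor. The ratio of galnt8b.2 to galnt8b.1 counts, which needs no scaling, was 0.361, 0.184 and 0.191 in the 5 dpf libraries.

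On chromosome 25 lie 3 genes named GALNT8, of which 1 passed the test. ENSDARG00000012355 was at 0.496, 1.64 and 1.00 CPM at 3 dpf and at 13.2, 2.48 and 5.36 CPM at 5 dpf (log2 fold change 2.74 ± 0.69, adjusted p = 0.0216). Replicate 1 is far above the other 5 dpf libraries, and without it the log2 fold change was 1.91. The call was lost without 3 dpf replicate 1 or 3 (adjusted p = 0.0742 to 0.0786). ENSDARG00000115940 had a log2 fold change of 2.05 (adjusted p = 0.0628) and ENSDARG00000011869 of 1.86 (adjusted p = 0.282), at means of at most 0.349 and 0.279 CPM. The first and the last of these overlap on the same strand, and reads over both would not be counted for either.

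The more abundant initiating enzymes rose by smaller steps. GALNT7, which in mammals acts on proteins that already carry GalNAc, went from 57.5 ± 4.42 to 119 ± 26.0 CPM (1.05 ± 0.22 on the log2 scale, adjusted p = 0.0108). GALNT7 overlaps another gene on its strand, so part of its reads may be missing from its counts. GALNT12, GALNT4 and GALNT3, enzymes of mammalian digestive epithelia among other tissues, rose with log2 fold changes of 1.22, 1.05 and 0.97 (adjusted p = 0.0124, 0.0180 and 0.0146). In each of these 3, 5 dpf replicate 1 was the lowest 5 dpf library, so that the fold changes without it were larger, at 1.43, 1.26 and 1.12. galnt14 rose from 1.30 ± 0.231 to 4.49 ± 0.773 CPM (1.79 ± 0.29, adjusted p = 0.00514). Of the genes named galnt10 in either letter case, one on chromosome 21 (log2 fold change 0.74, adjusted p = 0.0495) and one on an unplaced scaffold (0.83, adjusted p = 0.0496) lay just inside the threshold. No sequence was compared, so whether they are separate copies or parts of the same gene was not tested, and each is counted as a call. Any reads shared between them would be lost from both, so their separate levels are uncertain.

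By level per kilobase, galnt6 led the family. It was at 75.9, 76.2 and 47.3 CPM at 3 dpf and at 133, 86.5 and 55.5 CPM at 5 dpf, the ages overlapped, and it did not pass (0.46 ± 0.35, adjusted p = 0.339). GALNT2, GALNT1 and galnt11, broadly expressed members in vertebrates, had log2 fold changes of 0.29, 0.08 and 0.28 and did not pass either. GALNT18 ENSDARG00000100889 pointed down at -3.15 but at a mean of 0.370 CPM or less (adjusted p = 0.0519, and 0.0395 without 5 dpf replicate 1). Single libraries decided several of the calls in the family. Without 3 dpf replicate 1 the calls of GALNT7, GALNT12, GALNT4, GALNT3 and both galnt10 genes were lost, as they were without 3 dpf replicate 2, at adjusted p between 0.0513 and 0.163 over the libraries whose loss ended a call. Leaving out 3 dpf replicate 3 ended the calls of GALNT3 and both galnt10 genes, 5 dpf replicate 2 those of GALNT4, GALNT3 and the chromosome 21 galnt10, and 5 dpf replicate 3 those of GALNT4 and both galnt10 genes. The calls of GALNT17, galnt8b.1, galnt8b.2 and galnt14 held without each library in turn.

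**Figure D2:**
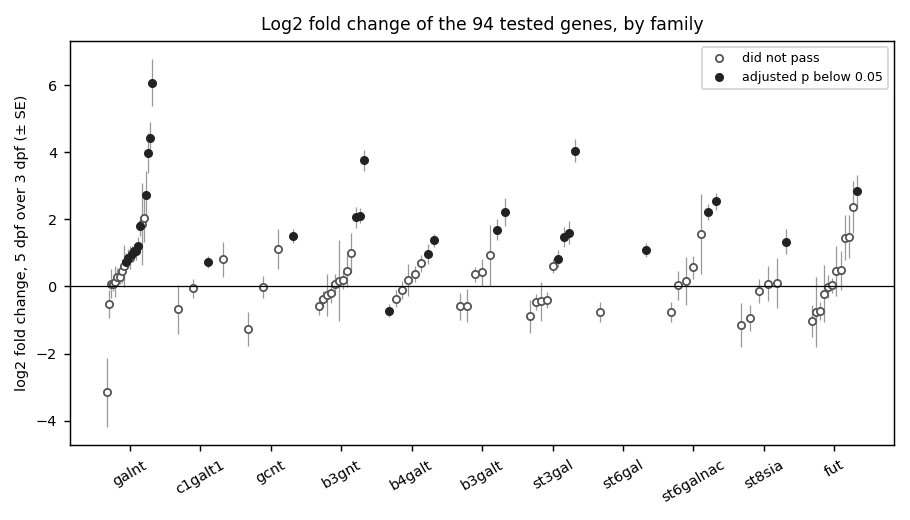
Log2 fold change (5 dpf over 3 dpf, with SE) of the 94 tested glycosyltransferases, with a column for each of the 11 families; filled points passed the test at an adjusted p below 0.05. The galnt column holds 11 filled points, all above 0, and the single filled point below 0 is B4GALT5 in the b4galt column.

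Of 8 tested genes of core formation 2 rose and 0 fell, where 18.1% of all genes tested were higher and 14.1% lower. C1GALT1C1, the chaperone (Cosmc) without which core 1 galactosyltransferase does not fold, was at 48.9, 48.3 and 47.8 CPM at 3 dpf and at 95.5, 75.7 and 69.8 CPM at 5 dpf. The 3 dpf libraries are nearly equal and all 5 dpf libraries lie above them (0.73 ± 0.19, adjusted p = 0.0229). The call was lost without any of the 3 dpf libraries (adjusted p = 0.0750 to 0.111). The galactosyltransferase gene with the highest level, c1galt1lb, was at 40.8, 42.7 and 26.3 CPM and then at 48.8, 27.6 and 29.0 CPM, with the ages overlapping (-0.06 ± 0.30, adjusted p = 0.896). c1galt1a was at 2.30 CPM or less in each library and did not pass (0.81, adjusted p = 0.262). The chaperone's share of the family's summed CPM per kb was thus 43.8 ± 6.31% at 3 dpf and 56.8 ± 4.56% at 5 dpf, without overlap.

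Among the branching enzymes GCNT7, the most abundant, was at 33.1, 38.4 and 50.3 CPM at 3 dpf and at 117, 116 and 115 CPM at 5 dpf. After TMM scaling the 5 dpf libraries are nearly equal and lie far above each 3 dpf library (1.51 ± 0.21, adjusted p = 0.00339). That replicate 1 equals the other 5 dpf libraries depends on its low scaling factor. GCNT4 ENSDARG00000044755, a core 2 branching enzyme in mammals, moved the other way in each library but did not pass, at 6.35, 8.05 and 4.89 CPM and then 3.09, 0.948 and 3.95 CPM (-1.27 ± 0.50, adjusted p = 0.0905). GCNT3, which makes the branches of gut mucins in mammals, was at 1.09 CPM or less in each library (1.11, adjusted p = 0.189). GCNT7 held 69.4 ± 6.50% of the family's summed CPM per kb at 3 dpf and 91.2 ± 3.31% at 5 dpf.

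Among the families of chain extension, 3 of 12 tested b3gnt genes rose, where 18.1% of all genes tested did. The summed level of the b3gnt family went from 50.3 ± 7.03 to 136 ± 27.3 CPM per kb. B3GNT7 (chr22:36656680-36661461, GRCz11), which in mammals lengthens chains that are sulfated, as in keratan sulfate, was at 5.43, 9.18 and 11.7 CPM at 3 dpf. At 5 dpf it was at 117, 128 and 113 CPM, a log2 fold change of 3.76 ± 0.32 (adjusted p = 0.00109), or a fold of 13.6. Without 5 dpf replicate 1 the value was 3.78, and without 3 dpf replicate 3, the highest 3 dpf library, it was 4.01. After TMM scaling no 5 dpf library stood apart, which depends on the low scaling factor of replicate 1. B3GNT3 ENSDARG00000058100, which in mammals extends core 1, was at 13.4, 13.0 and 9.08 CPM and then at 71.4, 42.5 and 34.6 CPM (2.06 ± 0.32, adjusted p = 0.00438). Replicate 1 is the highest of the 5 dpf libraries there, and without it the log2 fold change was 1.71. B3GNT2 ENSDARG00000052376, of the main polylactosamine-building type in mammals, was at 2.30, 2.86 and 2.76 CPM and then at 10.9, 11.6 and 11.6 CPM (2.11 ± 0.21, adjusted p = 0.00174). All 3 calls held without each library in turn.

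The other 9 tested b3gnt genes did not pass. The second gene named B3GNT2, ENSDARG00000091902, had a log2 fold change of 0.21 (adjusted p = 0.590). B3GNT5 ENSDARG00000004396, whose mammalian enzyme starts lacto-series glycolipids, was the b3gnt gene with the highest level per kilobase at 3 dpf. It was at 40.4, 29.5 and 19.0 CPM at 3 dpf and at 35.6, 34.5 and 22.6 CPM at 5 dpf, with the ages overlapping (0.06 ± 0.31, adjusted p = 0.902). In b3gnt2l, 5 dpf replicate 1 stood at 44.2 CPM against 9.43 and 10.4 CPM in replicates 2 and 3 and 8.68 to 13.5 CPM at 3 dpf, so its log2 fold change of 1.00 became -0.10 without that library. B3GNT7 held 8.05 ± 3.96% of the family's summed CPM per kb at 3 dpf and 39.4 ± 7.29% at 5 dpf, and B3GNT5 ENSDARG00000004396 held 31.9 ± 7.52% and then 12.5 ± 1.92%.

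The b4galt family, which adds galactose to GlcNAc, had changes in both directions. B4GALT4, which in mammals prefers sulfated GlcNAc, was at 19.5, 21.5 and 18.5 CPM at 3 dpf and at 47.1, 60.8 and 46.4 CPM at 5 dpf (1.38 ± 0.19, adjusted p = 0.00337). B4GALT5 ENSDARG00000010301, a lactosylceramide synthase in mammals, was at 84.6, 76.2 and 77.1 CPM and then at 43.3, 59.7 and 41.4 CPM (-0.72 ± 0.20, adjusted p = 0.0320). Each 5 dpf library lies below each 3 dpf library, and it was the single member that fell. That call was lost without any of the 3 dpf libraries or 5 dpf replicate 3 (adjusted p = 0.0703 to 0.126), and under upper quartile scaling, library size alone or the filter of at least 1 CPM in 3 libraries, with a negative sign throughout. A second gene of the name, b4galt5 ENSDARG00000037815, rose from 2.79, 3.86 and 2.43 CPM to 5.83, 7.36 and 4.55 CPM (0.97 ± 0.30, adjusted p = 0.0438). That call held without 5 dpf replicate 1 and was lost without any other library (adjusted p = 0.0501 to 0.160). B4GALT1 ENSDARG00000104404, the most abundant b4galt gene, was at 38.5, 35.7 and 27.2 CPM and then at 55.4, 36.8 and 38.2 CPM and did not pass (0.36 ± 0.24, adjusted p = 0.275). B4GALT4 held 16.5 ± 1.09% of the family's summed CPM per kb at 3 dpf and 31.9 ± 3.77% at 5 dpf, and B4GALT5 held 27.5 ± 2.21% and then 12.4 ± 1.89%. B4GALT7 and B3GALT6, which build the linker of proteoglycans, had log2 fold changes of -0.37 and -0.60 and did not pass.

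Of 7 tested b3galt genes 2 (28.6%) rose, where 18.1% of all genes tested did. b3galt10.1, the most abundant, was at 11.2, 9.18 and 4.60 CPM at 3 dpf and at 58.1, 33.5 and 25.3 CPM at 5 dpf (2.22 ± 0.43, adjusted p = 0.00843, and 1.82 without 5 dpf replicate 1). B3GALT2, which makes type 1 chains in mammals, was at 4.79, 4.71 and 8.72 CPM and then at 15.2, 22.9 and 21.0 CPM (1.70 ± 0.31, adjusted p = 0.00755). Replicate 1 was the highest 5 dpf library in the first and the lowest in the second, and both calls held without each library in turn. The summed level of the family went from 8.83 ± 0.225 to 25.8 ± 4.83 CPM per kb. Without 5 dpf replicate 1, 9 of its genes were tested and 4 rose (24.8% of all genes did). That fit added b3galt10.2 and B3GALT9, at means of at most 0.140 CPM. Its median log2 fold change of 1.47 therefore covers other genes than the 0.43 with all libraries, and the 2 medians cannot be set against each other.

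**Figure D3:**
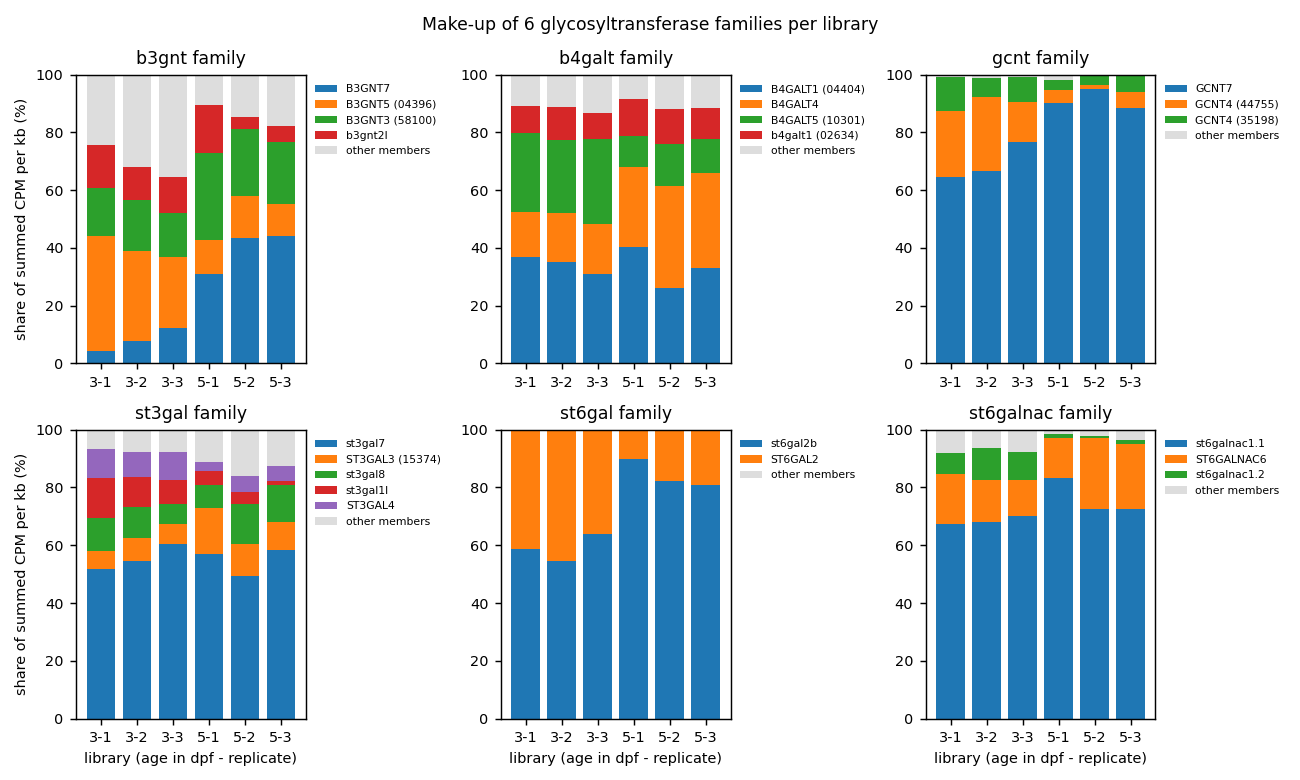
Share of each family's summed CPM per kb (%) held by its leading members in each library, as stacked bars for 6 families; libraries are named by age in dpf and replicate, and digits in parentheses end the Ensembl ID where symbols are shared. The b3gnt bars pass from a B3GNT5 share of 31.9% on average to a B3GNT7 share of 39.4%, and the st6gal bars from 59.0% to 84.3% st6gal2b.

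Of the sialyltransferases, the st6galnac family transfers sialic acid to the GalNAc of O-glycans or to gangliosides. Its summed level went from 30.7 ± 5.42 to 130 ± 17.6 CPM per kb, and 2 of 7 tested genes (28.6%) rose, where 18.1% of all genes tested did. st6galnac1.1 (chr12:20678187-20685624), whose mammalian counterpart makes the sialyl-Tn structure on goblet cell mucin, was at 23.0, 23.9 and 32.5 CPM at 3 dpf and at 145, 128 and 99.5 CPM at 5 dpf. Its log2 fold change was 2.23 ± 0.24 (adjusted p = 0.00184), and at 98.9 ± 18.3 CPM per kb it had the highest level of all 107 members at 5 dpf. ST6GALNAC6, which in mammals adds sialic acid to gangliosides and to chains of the colon, was at 4.87, 4.20 and 4.79 CPM and then at 19.6, 35.4 and 25.2 CPM (2.53 ± 0.26, adjusted p = 0.00182). In both genes the ages are far apart, and both calls held without each library in turn. st6galnac1.2, the neighbour of st6galnac1.1, was at 3.85, 6.01 and 6.80 CPM and then at 3.89, 2.54 and 3.4 CPM and did not pass (-0.76 ± 0.31, adjusted p = 0.0972, or -0.90 and 0.0449 without 5 dpf replicate 1). st6galnac1.2 overlaps another gene on its strand, so part of its reads may be missing from its counts.

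The st3gal family gave 4 calls among 9 tested genes (44.4%), all higher, where 18.1% of all genes tested were higher. st3gal1, whose mammalian counterpart caps core 1, was at 0.458, 0.504 and 0.334 CPM at 3 dpf and at 7.44, 8.74 and 5.31 CPM at 5 dpf, a fold of 16.6 (4.05 ± 0.34, adjusted p = 0.00109). Both genes named ST3GAL3, which caps type 1 chains and N-glycans in mammals, rose. ENSDARG00000015252 was at 1.76, 2.11 and 2.71 CPM and then at 4.22, 8.79 and 6.96 CPM (1.60 ± 0.34, adjusted p = 0.0124). ENSDARG00000015374 was at 7.60, 8.86 and 8.80 CPM and then at 34.0, 19.6 and 16.3 CPM (1.47 ± 0.30, adjusted p = 0.0102). In the first of these 5 dpf replicate 1 is the lowest 5 dpf library and in the second the highest. st3gal8 was at 11.9, 9.82 and 7.32 CPM and then at 14.2, 20.1 and 17.3 CPM (0.83 ± 0.25, adjusted p = 0.0383). st3gal7, the leading gene of the family at both ages with 55.6 ± 4.45 and 54.9 ± 4.80% of its summed CPM per kb, was at 74.8, 71.2 and 89.7 CPM and then at 142, 103 and 114 CPM. The ages do not overlap in st3gal7, but it did not pass with all libraries (0.61 ± 0.21, adjusted p = 0.0577, and 0.0457 without 5 dpf replicate 1).

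Within the st3gal family the call of st3gal1 held without each library in turn. That of ST3GAL3 ENSDARG00000015374 was lost without 3 dpf replicate 1 (adjusted p = 0.0566), and that of ENSDARG00000015252 without 3 dpf replicate 1 or 2 (0.0554 to 0.0650). The call of st3gal8 held without 5 dpf replicate 1 and was lost without any other library (adjusted p = 0.0700 to 0.126). ST3GAL4 and ST3GAL5, the second of which makes the ganglioside GM3, had log2 fold changes of -0.47 and -0.39 (adjusted p = 0.171 and 0.242).

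The st6gal family, which caps the galactose of N-glycans, had its level almost wholly in the ST6GAL2-type genes, with st6gal1 at 0.144 CPM or less in each library and not tested. st6gal2b was at 16.9, 12.8 and 19.1 CPM at 3 dpf and at 34.3, 38.7 and 31.4 CPM at 5 dpf (1.1 ± 0.21, adjusted p = 0.00880, and 0.0505 without 3 dpf replicate 1). ST6GAL2 ENSDARG00000039335 was at 29.1, 26.2 and 26.4 CPM and then at 9.23, 20.6 and 18.0 CPM (-0.77 ± 0.30, adjusted p = 0.0850). All 5 dpf libraries lie below the 3 dpf libraries in ST6GAL2, but replicate 1 lies far below the others. Without that library the log2 fold change was -0.49 at an adjusted p of 0.0340. ST6GAL2 also overlaps another gene on its strand, so part of its reads may be missing from its counts. st6gal2b held 59.0 ± 4.76% of the family's summed CPM per kb at 3 dpf and 84.3 ± 4.81% at 5 dpf.

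Enzymes that add sialic acid to sialic acid, the st8sia family, had 1 call, higher, among 6 tested genes (16.7%, near the 18.1% of all genes tested). st8sia7.1, the most abundant, was at 12.6, 24.4 and 15.9 CPM at 3 dpf and at 65.0, 29.5 and 39.4 CPM at 5 dpf (1.34 ± 0.36, adjusted p = 0.0270). The lowest 5 dpf library lies only a little above the highest 3 dpf library, and the call was lost without 3 dpf replicate 1 or 3 or 5 dpf replicate 3 (adjusted p = 0.0522 to 0.111). ST8SIA2 and ST8SIA4 make polysialic acid, known best from the nervous system. ST8SIA2 was at 5.59, 4.50 and 4.50 CPM and then at 0.393, 3.38 and 2.79 CPM (-1.14 ± 0.65, adjusted p = 0.217), and ST8SIA4 had a log2 fold change of -0.14.

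The fut family was the largest after galnt and gave 1 call, higher, among 12 tested genes (8.33%, against 18.1% of all genes tested), with a median log2 fold change of 0.25. Without 5 dpf replicate 1, 15 of its genes were tested, 4 rose and 1 fell (24.8 and 21.0% of all genes did). That fit took in rare genes not tested with all libraries, so its median of 0.56 cannot be set against the 0.25. The family's summed level was 29.7 ± 2.14 CPM per kb at 3 dpf and 29.6 ± 6.79 at 5 dpf. FUT8 ENSDARG00000015449, the enzyme of core fucose on N-glycans, held 71.1 ± 5.46 and 72.5 ± 2.96% of that level. It was at 70.8, 74.4 and 73.9 CPM and then at 96.8, 69.9 and 58.1 CPM, with the 3 dpf values inside the range of the 5 dpf values (0.04 ± 0.22, adjusted p = 0.918). fut9b.6, of the type that makes Lewis x in mammals, rose at a low level, from 0.0859, 0.115 and 0.0635 CPM to 0.589, 0.709 and 0.605 CPM (2.84 ± 0.49, adjusted p = 0.00603). It lies in a cluster of 6 fut9b genes on chromosome 8, several of which overlap on the same strand. fut9b.1 of that cluster had a log2 fold change of -1.02 (adjusted p = 0.140), and -1.57 (0.0126) without 5 dpf replicate 1. FUT10 and FUT11 had log2 fold changes of -0.72 and -0.01 and did not pass.

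The 13 members that were not tested had a mean of at most 0.461 CPM at either age. Among them fut7, the enzyme of sialyl Lewis x on mammalian leukocytes, had 0 counts at 3 dpf and 0, 24 and 11 counts in the 5 dpf libraries. Set against 3 counts over the 3 dpf libraries, its total at 5 dpf was 11.1-fold higher after scaling. Its ages overlap, because 5 dpf replicate 1 also had 0 counts. GCNT4 ENSDARG00000077550 had 1 count at 3 dpf and 12 at 5 dpf, a ratio of 11.4 with an exact 95% interval of 1.69 to 489. FUT9 ENSDARG00000059056 had 2 and 3 counts (ratio 1.43, 0.164 to 17.1), and st3gal1l3 had 0 and 2 counts. These intervals cover counting error only, and the value of fut7 has no interval.

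Without 5 dpf replicate 1, 99 members were tested and 39 rose and 7 fell, against 24.8% of all genes higher and 21.0% lower. The 7 that fell there were B4GALT5 ENSDARG00000010301, GALNT18 ENSDARG00000100889, ST6GAL2, b3gntl1, fut9b.1, st3gal1l and st6galnac1.2. st3gal1l, for example, was at 25.2, 17.7 and 15.5 CPM at 3 dpf and at 16.0, 11.6 and 3.85 CPM at 5 dpf. Its 5 dpf values overlap those of 3 dpf because of replicate 1 alone (-0.89, adjusted p = 0.190 with all libraries, and -1.34, adjusted p = 0.0410 without that library). Without both that library and 3 dpf replicate 3, 39 rose and 9 fell (27.4 and 24.4% of all genes).

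**Figure D4:**
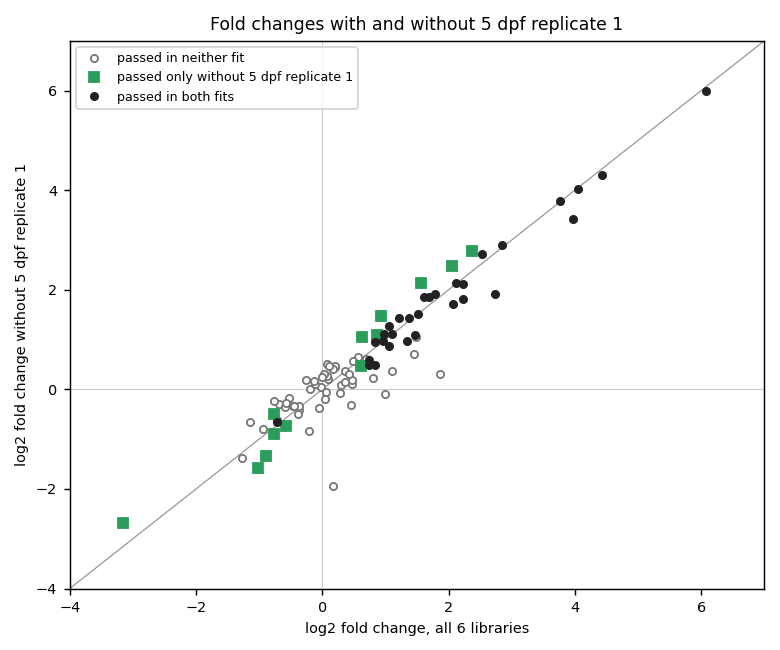
Log2 fold change (5 dpf over 3 dpf) of the 94 tested glycosyltransferases with all 6 libraries (x axis) and without 5 dpf replicate 1 (y axis), with marks for genes that passed in both fits, in neither, or without that library alone. The 30 genes that passed with all libraries also passed without it.

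Several members lie next to each other in the genome, and within a library the ratio of the counts of such a pair does not depend on scaling. For pairs of the same family with starts within 100 kb and at least 10 counts in each library, the ratio was followed by age in 8 pairs. With 3 libraries against 3 the smallest p of the exact two-sided permutation test is 0.1, so no pair can pass 0.05. st3gal1 and st3gal1l lie 26.4 kb apart on chromosome 19. Their ratio was 0.0182, 0.0285 and 0.0215 at 3 dpf and 0.464, 0.755 and 1.38 at 5 dpf, a change of 5.14 on the log2 scale (exact permutation p = 0.1). Per kilobase, st3gal1 held 0.769, 0.936 and 0.545% of the family's summed level at 3 dpf, and st3gal1l 13.6, 10.6 and 8.16%. At 5 dpf st3gal1 held 7.21, 10.2 and 6.59%, and st3gal1l 4.99, 4.34 and 1.54%. By that measure st3gal1 was the lower gene in each 3 dpf library and the higher in each 5 dpf library. st6galnac1.1 and st6galnac1.2, 13.1 kb apart on chromosome 12, had ratios of 5.99, 3.97 and 4.78 and then 37.2, 50.5 and 29.3, a log2 change of 2.97 (exact permutation p = 0.1). b3galt10.1 over b3galt11 changed by 2.92 and ST6GALNAC6 over ST6GALNAC4 by 2.53, each without overlap between the ages and at the same p. fut9b.3 over fut9b.1 changed by 1.47, and in the other direction B3GNT3 ENSDARG00000043482 over B3GNT3 ENSDARG00000058100 changed by -1.66. By contrast GALNT4 and GALNT12, 61.0 kb apart on chromosome 19, had ratios of 1.36, 1.37 and 1.78 and then 1.34, 1.27 and 1.41. Those ages overlap (exact permutation p = 0.4), although both genes rose, and so do those of galnt8b.2 over galnt8b.1 (exact permutation p = 0.3).

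**Figure D5:**
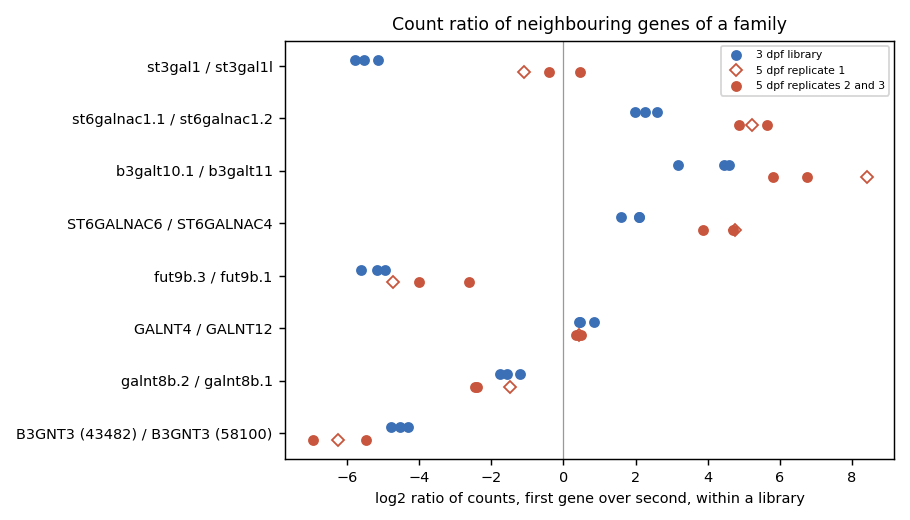
Log2 ratio of the counts of neighbouring genes of a family (first gene over second) within each library, by age, with 5 dpf replicate 1 as an open diamond. The 3 dpf and 5 dpf points of st3gal1 over st3gal1l are separated by 5.14 on average, while those of GALNT4 over GALNT12 overlap.

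The glycosyltransferases need sugar nucleotides, and of 33 tested genes that make or carry them 13 (39.4%) rose and 0 fell, with a median log2 fold change of 0.64. Over all genes tested 18.1% were higher and 14.1% lower. SLC35A3 ENSDARG00000020981, which carries UDP-GlcNAc into the Golgi, was at 0.563, 1.39 and 0.977 CPM at 3 dpf and at 30.5, 28.0 and 14.6 CPM at 5 dpf (4.64 ± 0.45, adjusted p = 0.00151). UGP2 ENSDARG00000008200, which makes UDP-glucose, was at 30.7, 36.0 and 33.8 CPM and then at 233, 102 and 85.0 CPM (2.07 ± 0.39, adjusted p = 0.00811). Of 11 tested mucins and mucin carriers, the proteins that bear the chains, 5 (45.5%) rose and 0 fell. Among them muc5.1, a secreted gel-forming mucin, had a log2 fold change of 2.66 ± 0.44 (adjusted p = 0.00523). podxl, a sialomucin of podocytes and vessels in mammals, had one of 4.12 ± 0.97 (adjusted p = 0.0166, and 0.0663 to 0.0727 without 3 dpf replicate 1 or 2), and it was at 0.838, 11.8 and 16.5 CPM at 5 dpf, low in replicate 1.

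Other terminal enzymes rose at 4 of 29 tested genes and fell at 0, which is 13.8% higher where 18.1% of all genes tested were. chst6, a GlcNAc sulfotransferase of keratan sulfate in mammals, was at 2.14, 2.98 and 4.89 CPM and then at 28.2, 39.9 and 25.3 CPM (3.22 ± 0.36, adjusted p = 0.00205). GBGT1 ENSDARG00000019207, which makes the Forssman glycolipid in mammals, had a log2 fold change of 3.67 ± 0.50 (adjusted p = 0.00320). The N-glycan list had 4 of 19 (21.1%) higher and 2 lower, near the shares over all genes, with MGAT1 ENSDARG00000036065 at 0.97 and MGAT4B at 0.81, both branching enzymes, and the glucosidase GANAB at -0.87 (adjusted p = 0.0225, 0.0246 and 0.0143). The list of O-fucose and Notch glycan enzymes had 0 of 14 higher and 3 lower, where 14.1% of all genes tested were lower. On it POGLUT1 was at -0.98 and POGLUT3 at -0.87, which add glucose to EGF repeats (adjusted p = 0.0316 and 0.0266). Of 21 tested sialidases, fucosidases and other removal enzymes 5 (23.8%) rose and 1 fell, with NEU3 ENSDARG00000058327, a membrane sialidase, at 2.79 and FUCA1 ENSDARG00000035879 at -0.78 (adjusted p = 0.0331 and 0.0466). Of 16 tested glycolipid genes 4 rose and 1 fell, with CERS6 at 1.36, GM2A at 0.99 and UGCG, which makes glucosylceramide, at -0.98 (adjusted p = 0.0167, 0.0284 and 0.0288). Of the genes named in this paragraph chst6 and GBGT1 kept their calls without each library in turn. The others all lost theirs without 3 dpf replicate 1, at adjusted p of 0.0516 to 0.136 over the libraries whose loss ended a call. Leaving out 3 dpf replicate 2 also ended all of these except NEU3, and 3 dpf replicate 3 those of MGAT1, MGAT4B, POGLUT3, GM2A, NEU3 and FUCA1. Without 5 dpf replicate 2 the calls of MGAT1, MGAT4B, POGLUT1, POGLUT3, UGCG, CERS6 and FUCA1 were lost, and without 5 dpf replicate 3 those of POGLUT1, UGCG and FUCA1. The log2 fold change of NEU3 was 1.64 without 5 dpf replicate 1 and 3.43 without 3 dpf replicate 2.

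Markers of several cell types moved with age in the same libraries, and their part in these results was not tested. For the counts that follow, 18.1% of all genes tested were higher and 14.1% lower. Of 8 tested goblet markers 6 rose, their summed level being 685 to 764 CPM at 3 dpf and 1084 to 1506 CPM at 5 dpf, although foxa3, the most abundant over all libraries, did not pass (-0.42, adjusted p = 0.217). Of 12 enterocyte markers 10 rose and 1 fell, at 3083 to 3814 CPM and then 8797 to 27369 CPM, with 5 dpf replicate 1 highest. Such sums do not show how pure the sorts were. All 10 lysosome-rich enterocyte markers were tested and 6 rose. Their sum was 180.3 to 248 CPM at 3 dpf and 3821, 812 and 809.6 CPM in 5 dpf replicates 1, 2 and 3. Enteroendocrine markers rose at 4 of 12, at 908 to 1749 and then 4156 to 6682 CPM. PYY, the most abundant of them by CPM, went from 215 ± 74.9 to 2571 ± 758 CPM. In that list 4 genes pointed down without passing, such as NEUROD1 (-0.82, adjusted p = 0.154). Tuft markers rose at 4 of 6, at 7.95 to 10.5 and then 44.1 to 67.9 CPM, and BEST4-type markers at 5 of 6, at 488 to 922 and then 1212 to 3399 CPM. Markers of cycling cells fell at 6 of 8, from 1466 to 1659 CPM to 307 to 572 CPM.

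Markers on the lists of other tissues, some of which the gut epithelium may also express, were detected as well, and their part in the results was not tested either. Here too the shares over all genes tested were 18.1% higher and 14.1% lower. All 8 exocrine pancreas markers rose, from 1.42 to 2.41 CPM to 242 to 805 CPM, the most abundant being prss1. Mesenchyme markers rose at 8 of 9, with col1a1a the most abundant. Their sum was 167 to 189 CPM at 3 dpf and 409, 1608 and 1554 CPM in 5 dpf replicates 1, 2 and 3. Leukocyte markers rose at 6 of 8 (6.80 to 10.7 and then 19.1 to 46.0 CPM), hepatocyte markers at 2 of 7 (45.4 to 78.6 and then 70.1 to 91.4 CPM), and muscle markers at 4 of 9 with 1 lower (1436 to 1773 and then 885 to 1154 CPM). The muscle sum joins genes that moved apart, with 4 pointing up and 5 down. acta2 went from a mean of 1.15 to 81.7 CPM, and actc1b, which did not pass, from 697 to 264 CPM. Endothelial markers rose at 3 of 5 with 1 lower, at 4.46 to 10.2 CPM over all libraries. Neuron markers rose at 2 of 13 (15.4%, near the share over all genes), at 264 to 511 CPM over all libraries. Skin and ionocyte markers rose at 4 of 10 with 1 lower (3853 to 4993 and then 4879 to 9324 CPM), kidney tubule markers at 3 of 8 (383 to 657 and then 482 to 1107 CPM, most of it from SLC20A1 ENSDARG00000010641, and with CUBN also on the lysosome-rich enterocyte list and podxl on the mucin list), erythroid markers at 2 of 6 (84.6 to 162 and then 91.9 to 178 CPM) and endocrine pancreas markers at 2 of 4 with 1 lower (95.7 to 148 and then 78.4 to 125 CPM).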

How the data were processed

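RNA-seq was measured in 6 libraries, 3 at 3 dpf and 3 at 5 dpf. The authors deposited raw counts of fragments per gene, made with featureCounts 1.6.3 with strand setting 2 over exons of the Ensembl 115 annotation of GRCz11, per the file headers. Trimmomatic 0.38, STAR 2.7.11 and Subread 1.6.3 are listed in the submitters' processing notes. The exon length per gene, another deposited value, was used for levels per kb. Fragments that lie over more than a single gene were not counted, which makes near-copies and overlapping genes uncertain: 28 members share a symbol with another gene and 8 overlap another gene on the same strand. Symbols came from the gene name table supplied with the reference, which named 29201 of the 32520 genes.

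All genes were fitted together with edgeR 4.0.16 in R 4.3.3 (quasi-likelihood F-test, two-sided, TMM, age as the only term), after filterByExpr (min.count 10, min.total.count 15). P-values of the 22386 genes that passed the filter were adjusted together by Benjamini-Hochberg, and 0.05 was the threshold. Standard errors were derived from the fold change and the F statistic. No label says that libraries of an age came from separate clutches, so p-values measure the spread between pools, which may be technical.

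Named genes were all called members and the most abundant per kb of each family, up to 3 called genes of each pathway list that reached 5 CPM on average at 1 of the ages, and the most abundant gene of each marker list. Several genes that this rule takes, most of them from the marker lists, are not described. Others named were chosen after their values were seen. Members, the 7 pathway and 18 marker lists and the tests were chosen with earlier results of these data known. The neighbour ratios and family shares were chosen after values were seen. Of the pathway entries 102 matched a symbol in any letter case, 44 matched once their copy letter was removed and 16 matched none, and of the marker entries 110, 26 and 15. The tests were checked on simulated counts, with the same spread for each gene and no library that stood apart. That check therefore does not cover a library such as 5 dpf replicate 1. DESeq2 1.42.0 was among the 15 alternatives.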

Additional observations from a re-analysis of the deposited data

How the results depend on the processing

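The number of glycosyltransferases that rose was 29 and stayed within 1.5 times of that with DESeq2 (33), RLE scaling (27), upper quartile scaling (32), genes kept at 1 CPM or more in 3 libraries (30), no filter (26), mitochondrial genes left out (30), and both 5 dpf replicate 1 and 3 dpf replicate 3 left out (39). These counts rest on unlike totals: 94 members were tested in the main fit and 71 with the filter of 1 CPM in 3 libraries. With no filter 107 were tested, without mitochondrial genes 97, and without both libraries 96. Library size alone gave 19. Leaving out each library in turn gave 15 to 39 higher and 0 to 7 lower. Over all genes the share higher was 18.1% in the main fit, 7.63% when 3 dpf replicate 1 was dropped and 24.8% when 5 dpf replicate 1 was. It was 21.3% with DESeq2 and 11.2% with library size alone. For several other settings no share over all genes is given. Where it is given here, the count of members that rose moved in the same direction as that share. The number that fell, 1, was 6 with DESeq2 and 9 without both libraries, and 0 with that stricter filter, with library size alone, with upper quartile scaling and with the replicate block. The cause of these differences was not tested. With a block for the replicate number 23 rose and 0 fell. Deviations from the age mean correlated at 0.0923, -0.217 and 0.193 between libraries of the same number, and at -0.26 to 0.239 between libraries of different numbers. No pairing by number was seen, but with 3 libraries an age these values cannot exclude one. Reading the rule so that every prefix needs a digit after it left 98 members, of which 27 rose and 1 fell. No called gene changed its direction in any of the 15 alternatives that tested it. With 3 libraries an age the precision is limited, and for members at low counts counting error adds to it.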
